A study of Arabidopsis thaliana with 2 samples.

Results

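The TOPLESS family of Arabidopsis thaliana holds 5 genes, TOPLESS (TPL, AT1G15750) and the TOPLESS-related genes TPR1 (AT1G80490), TPR2 (AT3G16830), TPR3 (AT5G27030) and TPR4 (AT3G15880, also named WSIP2), out of 27444 nuclear protein-coding genes. The members were chosen by family membership with their peaks already known, and all peaks overlapping a gene or the 2000 bp on either side of it were taken. Their peak counts and ranks are therefore a description, and no test was run on them.

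The peaks come from chromatin immunoprecipitation sequencing (ChIP-seq), in which DNA cross-linked to a protein is recovered with an antibody and sequenced. Both libraries came from whole Col-0 seedlings of the genotype CCA1pro:CCA1-FLAG cca1 lhy, aged 14 days, in which the native CCA1 promoter drives a FLAG-tagged CCA1 in plants mutated in both cca1 and lhy. Seedlings grew at 22 °C with 2% sucrose under 12 h of light and 12 h of darkness. They were fixed 1 h into the light period, and the antibody was anti-FLAG. The IonPGM library was read on an Ion PGM and the Illumina library on an Illumina GAII, with 1 library each and a different preparation kit, so kit and sequencer cannot be told apart, and nothing below has a replicate error. Whether both came from the same plants is not given in the sources used here, and signal from different cell types of the seedling is summed.

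TPL and its relatives are transcriptional corepressors. They do not bind DNA themselves but are recruited by DNA-binding repressors that carry a short EAR motif, and they in turn bring in histone deacetylases. They act in auxin, jasmonate, brassinosteroid and meristem pathways, and in the circadian clock the pseudo-response regulators PRR9, PRR7 and PRR5 recruit them to the promoters of CCA1 and LHY. CCA1 is a MYB-type clock transcription factor that is most abundant around dawn.

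CCA1 peaks lay at an end of 4 of the 5 genes, TPL, TPR1, TPR2 and TPR3, in both libraries, and TPR4 had no peak in either. Each library had 5 peaks at the family, 1 at TPL, 2 at TPR1, 1 at TPR2 and 1 at TPR3. Every one of these peaks overlapped a peak of the other library by at least 1 bp, which gives 5 shared pairs and no peak found by 1 sequencer alone. Over the whole lists, 52.2% of IonPGM peaks and 51.6% of Illumina peaks overlapped a peak of the other list. Of all protein-coding genes, 16.1% had an IonPGM peak in the same window, 17.0% had an Illumina peak and 8.89% had a shared pair. Long genes have wide windows, so the same shares were taken over the 497 genes whose length lies within the range of the family, 6217 to 8213 bp. There they were 15.7% for IonPGM, 19.7% for Illumina and 9.66% for a shared pair.

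**Figure D1:**
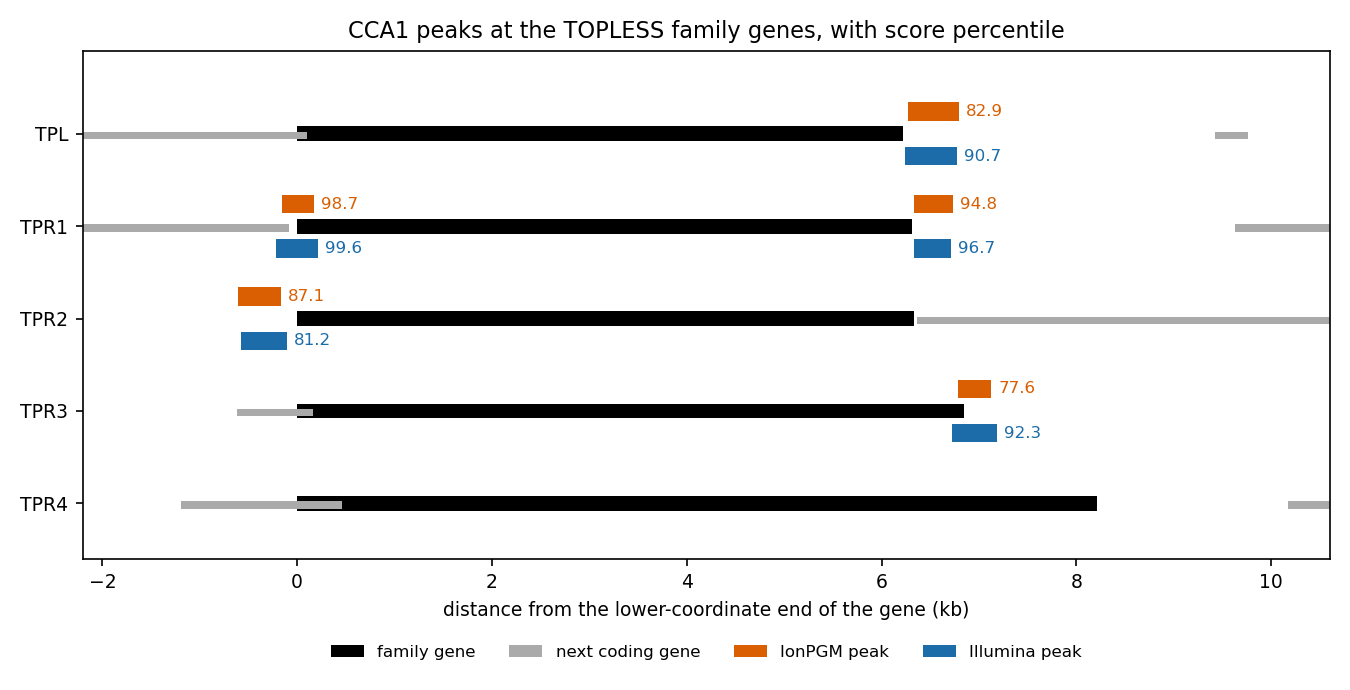
Position of the peaks at each family gene, as distance in kb from the lower-coordinate end of the gene, with IonPGM peaks above and Illumina peaks under each gene and the score percentile beside each peak. Black bars are the family genes and grey bars the next protein-coding gene on each side. The peaks sit at gene ends, TPR1 has them at both ends, and TPR4 has none.

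TPR1, a corepressor gene also known for a role in plant immunity, carried the highest-ranked peaks of the family. Peaks are ranked by the authors' score within their own list, as a percentile with 100 for the highest score. At the lower-coordinate end of TPR1 the IonPGM peak (chromosome 1: 30260661 to 30260993) was number 38 of 2901 from the top, at percentile 98.7. The Illumina peak there (30260600 to 30261033) was number 12 of 2954, at percentile 99.6. The Illumina peak contained the IonPGM peak whole, and their centres were 10.5 bp apart. Among all 1532 shared pairs this one was number 12 by mean percentile.

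Which gene this pair belongs to is not settled by its position. PTAC17 (AT1G80480), which encodes a protein found in plastid transcriptionally active chromosomes, ends 85 bp from TPR1, and the pair overlaps both genes. The IonPGM peak reaches 176 bp into TPR1 and the Illumina peak 216 bp.

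The other pair of TPR1 lay just outside its higher-coordinate end. The IonPGM peak at 30267151 to 30267554 had percentile 94.8 and began 26 bp from the gene. The Illumina peak at 30267152 to 30267527 had percentile 96.7 and began 27 bp from it. The next protein-coding gene on that side, AT1G80500, lay 3319 bp away and had no peak in its own window. TPR1 thus had a peak at both ends in both libraries, though the lower-coordinate pair also overlaps PTAC17. The higher-coordinate pair is within 2000 bp of no other protein-coding gene. Of all protein-coding genes, 0.568% had at least 2 shared pairs in their window. That share covers genes of all lengths and was not taken over genes as long as the family's. In it, 1 peak that overlaps 2 peaks of the other list counts as 2 pairs.

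TPL, the founding member of the family, had its pair outside the higher-coordinate end. The IonPGM peak (chromosome 1: 5421089 to 5421611) had percentile 82.9, and the Illumina peak (5421054 to 5421594) had percentile 90.7. They began 56 bp and 21 bp from the gene and shared 506 bp. The next protein-coding gene on that side, AT1G15757, was 3208 bp away, and neither neighbour of TPL had a peak in its window.

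TPR2 was the family gene with its pair outside the lower-coordinate end. The IonPGM peak (chromosome 3: 5730909 to 5731353) had percentile 87.1 and stopped 166 bp short of the gene. The Illumina peak (5730945 to 5731416) had percentile 81.2 and stopped 103 bp short of it. TPR2 had a higher percentile in the IonPGM than in the Illumina library, the reverse of the other pairs of the family. The pair also falls in the window of the neighbour AT3G16820, which ends 2344 bp from TPR2. On the other side AT3G16840 begins 31 bp from TPR2 and had no peak in its window.

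TPR3 had a pair across its higher-coordinate end. The IonPGM peak (chromosome 5: 9515497 to 9515843) had percentile 77.6, and the Illumina peak (9515443 to 9515905) had percentile 92.3. Their centres were 4 bp apart, and the Illumina peak contained the IonPGM peak. The IonPGM minus Illumina difference of -14.8 percentile points was the widest of the family's pairs. No other protein-coding gene had this pair in its window.

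TPR4, whose protein, like TPL, was found as a partner of the stem-cell factor WUSCHEL, had no peak within 2000 bp. Its nearest IonPGM peak lay 5101 bp from the gene (chromosome 3: 5358576 to 5358980, percentile 70.8). Its nearest Illumina peak lay 5064 bp away (5358371 to 5359017, percentile 80.6). Both lie on the lower-coordinate side and overlap each other at FAD5, a plastid fatty acid desaturase gene named after its values were seen. Inside the window, the peak farthest from a family gene was the IonPGM peak of TPR2, at 166 bp, so no family gene had a peak between 166 and 5064 bp from it. Only called peaks were used here, so a weaker signal at TPR4 below the peak threshold would not be seen. The read depth of either library is also unknown.

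No peak of the family lay wholly inside a family gene. Of all nuclear peaks, 34.9% in the IonPGM list and 22.4% in the Illumina list lay wholly inside a protein-coding gene. Among peaks in the window of a gene as long as the family's, 13 of 84 IonPGM peaks and 15 of 108 Illumina peaks lay wholly inside that gene. The 10 family peaks were centred between 9 bp inside and 388 bp outside a gene end. The centre of the stretch common to both libraries lay a median of 214.5 bp from the end of the family gene over the 5 family pairs. Over all 1499 nuclear shared pairs the median to the nearest end of a protein-coding gene was 314.5 bp, and over the 711 of them centred outside such genes within 1000 bp of an end it was 220 bp, close to the family's. The gene table used gives no strand, so a start cannot be told from an end, nor promoter from 3' region.

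The peaks of the family were wider than the median of their list. Over each whole list width rose with score, with a Spearman correlation of 0.396 for IonPGM and 0.526 for Illumina. Widths were not compared at matched score, so the width of these high-ranked peaks was not read as a separate trait of the family. IonPGM peaks at the family were 333 to 523 bp wide, against a median of 253 bp over that list. Illumina peaks at the family were 376 to 541 bp wide, against a median of 275 bp. Within the family width did not follow score in either list. In the IonPGM list the highest-scored peak, at the lower-coordinate end of TPR1, was the narrowest at 333 bp. In the Illumina list both peaks of TPR1, the highest-scored of the family, were the narrowest, at 434 bp and 376 bp.

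The spread between the libraries gives a rough scale for the steps in this order. It is the spread of a difference within a pair, not of a step between 2 pairs. Over the 293 shared pairs with a mean percentile of at least 84.1, the value of the lowest family pair, the IonPGM minus Illumina difference had an SD of 8.31 percentile points, a spread that this choice of high pairs itself narrows. Over all 1532 shared pairs the SD was 29.8. The 2 pairs of TPR1 differed from each other by 3.42 points in mean percentile, less than the smaller of these SDs. The lower-coordinate pair was the higher in both libraries, by 3.90 points in the IonPGM and 2.95 in the Illumina library. The pair at the higher-coordinate end stood above that of TPL by 12.0 points in the IonPGM and 6.03 in the Illumina library, so the same direction in both, but past the smaller SD only in the IonPGM library and past the larger in neither. TPL exceeded TPR3 by 1.78 points in the mean and TPR3 exceeded TPR2 by 0.84 points, and both steps changed sign between the libraries. TPR1 was highest in both libraries, and the order of TPL, TPR2 and TPR3 changed between them.

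**Figure D2:**
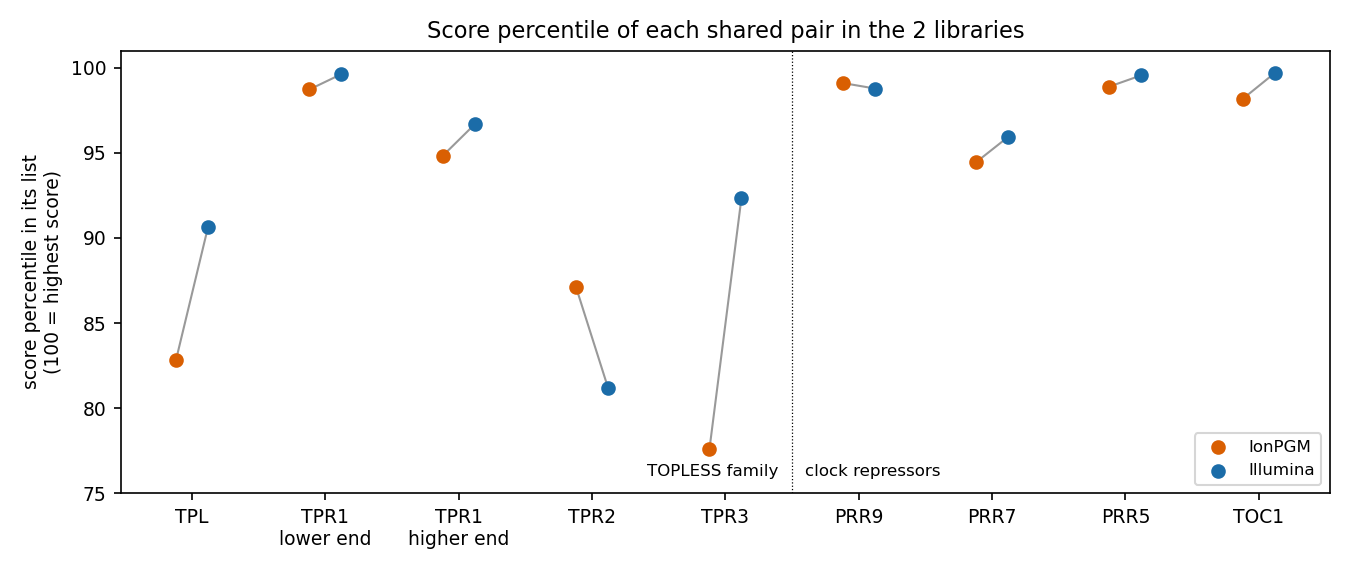
Score percentile (vertical axis starting at 75, where 100 is the highest score of a list) of each shared pair in the IonPGM and Illumina libraries, for the 5 family pairs and the best pair of 4 clock repressor genes, with a line joining the same pair. Both TPR1 pairs lie at 94.8 or above, in the range of PRR7, PRR9, PRR5 and TOC1, and TPR3 has the widest gap between libraries.

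Set among all 2441 genes with a shared pair and ordered by the mean percentile of the best pair, TPR1 was number 19, TPL 370, TPR3 444 and TPR2 477. The genes most like TPR1, by Euclidean distance between the 2 percentiles of the best pair over the 2 libraries, were PTAC17, which has the very same pair at distance 0, then PRR5 (0.185) and BBX13 (0.214, tied with its neighbour AT1G28060). BBX13 encodes a B-box zinc finger protein.

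**Figure D3:**
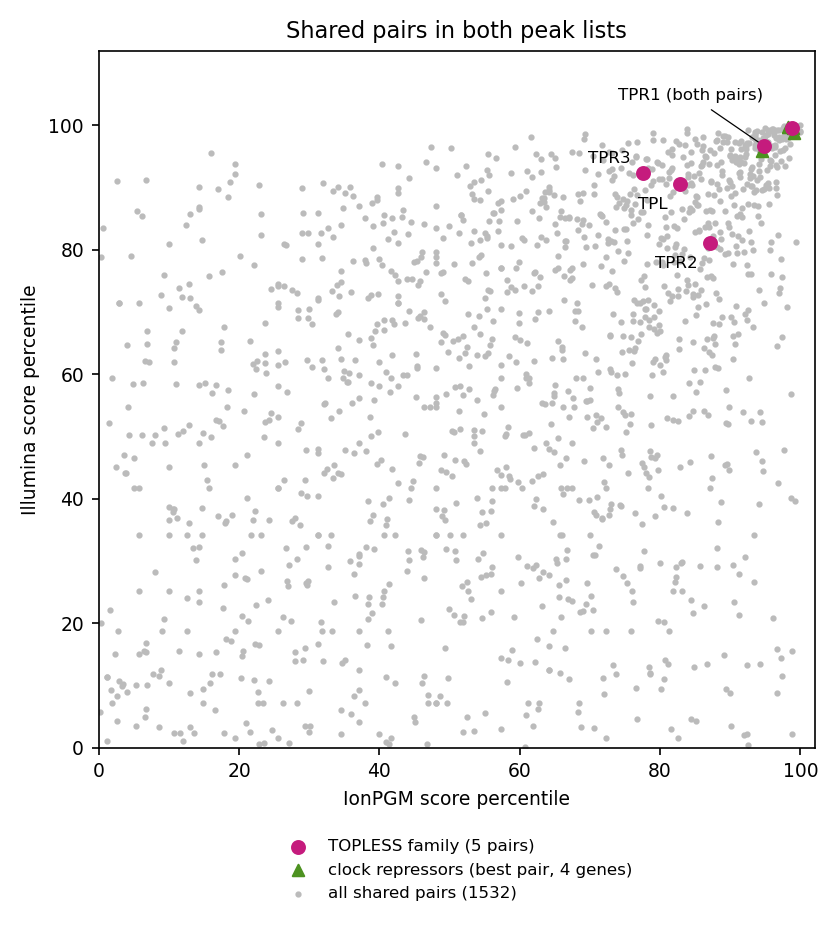
IonPGM score percentile (horizontal axis) against Illumina score percentile (vertical axis) for all 1532 shared pairs (grey), with the 5 family pairs (circles) and the best pairs of PRR9, PRR7, PRR5 and TOC1 (triangles). The TPR1 pairs lie in the upper right corner with the clock repressors, and TPL, TPR2 and TPR3 lie lower.

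The clock repressor genes, whose products act with the corepressors or beside them, were compared with the family. All 4 had a shared pair, against 8.89% of all protein-coding genes. At its best pair PRR5 stood at percentile 98.9 (IonPGM) and 99.6 (Illumina), and the other genes, with IonPGM given before Illumina, at 99.1 and 98.8 (PRR9), 98.2 and 99.7 (TOC1), and 94.5 and 95.9 (PRR7). TPR1, at 98.7 and 99.6, lay within their range in both libraries, and TPL, TPR2 and TPR3 lay below all 4 in both. PRR5 had 2 shared pairs, as TPR1 did. With 1 library per sequencer and members chosen with these values known, the difference between the groups was not tested.

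Other genes of the corepressor pathway were counted in 3 lists. Of 10 genes for other corepressor subunits and histone deacetylases, 2 had an IonPGM peak, 3 an Illumina peak and 1 a shared pair. These shares of 20%, 30% and 10% stand beside the 16.1%, 17.0% and 8.89% of all protein-coding genes, and those for IonPGM peaks and shared pairs are near them. That gene was SLK2, a SEUSS-like adaptor of the LEUNIG corepressor, at percentile 59.5 (IonPGM) and 61.9 (Illumina). HDA19 and HDA6, histone deacetylases that work with TPL, had no peak within 2000 bp in either library. The same held for HDA9, for LUH, the closest relative of LEUNIG, and for SEU and SLK3. LUG, which encodes LEUNIG, had an IonPGM peak alone, at percentile 35.8. SLK1 and HOS15 had an Illumina peak alone, at percentiles 59.3 and 61.0.

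Of 7 genes for adaptors that link other proteins to TPL, 4 had an IonPGM peak, 3 an Illumina peak and 2 a shared pair (57.1%, 42.9% and 28.6%, against 16.1%, 17.0% and 8.89% of all protein-coding genes). AFP3, of a family that binds the abscisic acid factor ABI5, had its pair at percentile 82.3 (IonPGM) and 97.5 (Illumina). TMAC2, of the same family, had one at 44.9 and 4.98. AFP2, also of that family, had an IonPGM peak alone, at percentile 77.6. Lower single-library peaks lay at AFP1 (Illumina alone, percentile 23.0) and KIX9 (IonPGM alone, 20.3). NINJA, the adaptor between JAZ proteins and TPL in jasmonate signalling, had no peak in either library.

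Of 12 genes for repressors that recruit TPL, 7 had an IonPGM peak, 7 an Illumina peak and 4 a shared pair (58.3%, 58.3% and 33.3%, against the same 16.1%, 17.0% and 8.89%). The genes with a pair were SMXL6 (43.7 in the IonPGM and 50.5 in the Illumina library) and SMXL8 (50.8 and 31.6), repressors of strigolactone signalling, and the ethylene response factor genes ERF4 (8.01 and 28.2) and ERF8 (5.79 and 15.1). ERF4 had a second, higher IonPGM peak, at percentile 82.4, which no Illumina peak overlapped. SMXL7, of the same family as SMXL6, had 2 Illumina peaks, the higher at percentile 84.2, and no IonPGM peak. The other genes with a peak in 1 library alone ranked lower. They were PPD2 (IonPGM, percentile 61.4), ERF7 (IonPGM, 10.3) and BZR1 (Illumina, 23.9). WUS had no peak in either library. BES1, a brassinosteroid factor, had a peak in each library, and these did not overlap. The median mean percentile of the best shared pair was 85.9 over the 4 family genes that had one, 60.7 for the corepressor and deacetylase list (SLK2 alone), 57.4 for the adaptors, 29.6 for the repressors, 98.9 for the clock repressors and 60.9 over all protein-coding genes with a pair.

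**Figure D4:**
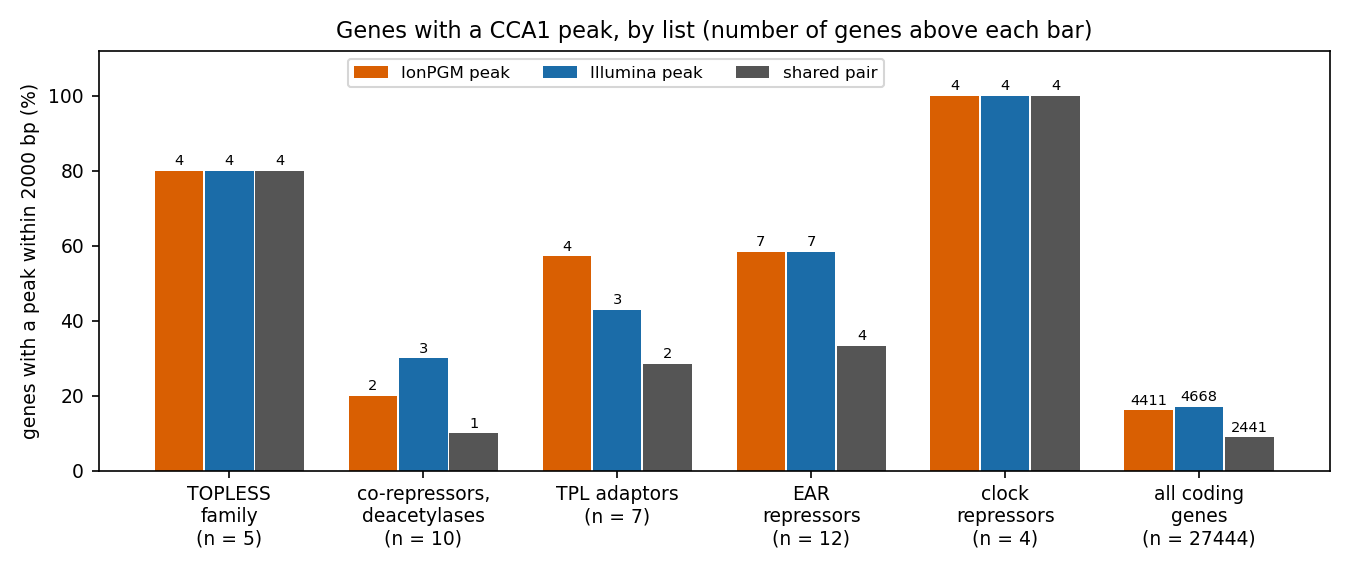
Percentage of the genes of each list with an IonPGM peak, an Illumina peak or a shared pair within 2000 bp (vertical axis from 0), with the number of genes above each bar and list sizes under the axis. In the TOPLESS family 4 of 5 genes have all 3, and in the 27444 protein-coding genes 4411, 4668 and 2441 do.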

How the data were processed

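The submitters' processing notes name MACS2, SAMtools 0.1.18, Bowtie 0.12.7 and the TAIR10 build. The sources used here do not give the peak threshold or any control library. The authors deposited 1 peak list per library with 1 score per peak. Its scale is unknown, and it was used for ranks inside each list alone, with ties at their mean rank. Positions were read as 0-based half-open and are printed 1-based.

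Genes came from NCBI RefSeq on TAIR10.1. No gene coordinate from it is printed. All 38 genes of the family and pathway lists were found by locus. A shared pair is an IonPGM and an Illumina peak in a gene's window of 2000 bp that overlap by at least 1 bp. Members, lists and the rule for named genes (all members, genes sharing their peaks, pathway genes with a pair, next genes) were chosen with earlier results of these data known. List genes named without a pair, and FAD5, were picked after their values were seen. Planned motif searches were not run because no sequence was used here. The code was tested on simulated peak lists for finding planted peaks and counting overlaps. That test did not cover ranks or peaks at the lower-coordinate end of a gene. Python 3.11.15, pandas 2.3.3, NumPy 2.4.6 and Matplotlib 3.10.9 were used.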

Additional observations from a re-analysis of the deposited data

How the results depend on the processing

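The counts of 4 members with an IonPGM peak, 4 with an Illumina peak and 4 with a shared pair stayed at 4 with windows of 500, 1000 and 5000 bp, with peaks above the median score only, and with at least 50% of the peak in the window. The windows of 500, 1000 and 5000 bp hold the same family peaks. The median-score setting and the rule of 50% of the peak in the window could not change the counts. Every family peak had percentile 77.6 or above and reached at most 610 bp beyond its gene. Shares over all protein-coding genes were taken for the 2000 bp window and all peaks alone. The counts at other settings therefore have no background share beside them. The shared count also stayed at 4 with an overlap of at least 50% of the shorter peak and with centres within 100 bp. Neither setting could change it, because every family pair overlapped by at least 91.9% of the shorter peak, with centres at most 49.5 bp apart. With a window of 0 bp, where a peak must touch the gene itself, each of the 3 counts was 2 (TPR1 and TPR3), by the construction of that window. Ranking over nuclear peaks alone moved the highest percentile of a member by at most 0.89 points. Ranking by width did not keep TPR1 highest. In the IonPGM library TPL stood at 92.6, TPR2 at 89.0, TPR1 at 85.5 and TPR3 at 78.1, and in the Illumina library TPL at 96.9, TPR2 at 93.9, TPR3 at 93.3 and TPR1, the lowest, at 90.7. Each sequencer has 1 library, so no library could be left out. No paired analysis was possible because the groups hold 1 library each and no test was run.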

Other observations

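Annotated long non-coding RNAs lay under 3 of the 5 family pairs, an overlap noticed in these data and not tested. At TPL the stretch common to both libraries covers the whole of AT1G05197 (244 bp), and at TPR2 it covers the whole of AT3G03375 (201 bp). At TPR3 it covers 270 of the 355 bp of AT5G04345. Neither pair of TPR1 overlaps one. Over all 1499 nuclear shared pairs, 98 (6.54%) overlapped an annotated long non-coding RNA, and over the 711 centred outside protein-coding genes within 1000 bp of an end, 52 (7.31%) did. The strand and expression of these RNAs were not examined here.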
